A study of Mus musculus with 12 samples.

Results

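The genes described here are 10 genes of lipid droplets and of fat uptake and storage in the liver, most of them known targets of the nuclear receptor PPAR-gamma: Pparg itself, Cidea, Cidec, Plin2, Plin4, Plin5, Cd36, Fabp4, Mogat1 and Lpl. They were chosen by name, and every probe whose accession leads to 1 of these symbols was taken, which gave 12 probes of 39429 on the array and 10 genes of 20882 that could be named. Cidec and Lpl have 2 probes each, and the brighter one was read as the gene. Liver RNA came from 12 female C57BL/6N mice, bought as 6-week-old animals and fed for 6 months, 3 in each of 4 groups. All groups had a purified normal formula diet low in fat, so that no group was given a fattening diet. The Ctrl mice had corn starch and sucrose as carbohydrate, and the RS mice had the same diet with resveratrol, a stilbene of grapes and peanuts, mixed in. In the DJ mice, rice of the Dongjin variety took the place of starch and sucrose, and in the DJ526 mice the rice was DJ526, a Dongjin line that carries a peanut stilbene synthase gene and makes resveratrol. DJ526 and DJ rice thus differ in the transferred gene as well as in resveratrol. Mice were housed in groups, and the cage of each mouse measured is not given in the sources used here.

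A hepatocyte stores fat as triglyceride in droplets, each a core of neutral lipid under 1 layer of phospholipid and coat proteins. Fatty acids enter through carriers such as CD36 or are set free from lipoproteins by lipoprotein lipase. They are built into triglyceride by acyltransferases, and the droplets are then coated by perilipins and enlarged by the CIDE proteins. PPAR-gamma is the master regulator of adipocytes, is low in normal liver, and in fatty livers of mice drives a set of genes otherwise typical of fat tissue, among them Cidea, Cidec, Fabp4, Cd36 and Mogat1.

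Levels are log2 of the scanner's processed signal less log2 of that array's 75th percentile, so that 0 is the 75th percentile and a step of 1 is a doubling. They compare mice for 1 probe, not probes with each other. By array, 73.0% to 80.8% of spots passed the scanner's test for being well above background, and all 12 probes of the 10 genes passed on all 12 arrays. The arrays sat 4 to a slide: slide 1 held the 3 Ctrl mice and DJ 1, slide 2 held DJ 2, DJ 3, RS 1 and RS 2, and slide 3 held RS 3 and the 3 DJ526 mice. The summed signal of 8 hepatocyte markers, as a multiple of the 75th percentile, was 1594 to 1953 over all mice. Some adipocyte genes (Adipoq, Cfd, Plin1 and Retn) set 3 mice apart, Ctrl 1, RS 1 and DJ 2, as given below. Values without these 3 mice stand beside the results they touch. A sample table of the study gives the RS and DJ records the other way round from the labels. The labels were followed, and if that table were right every RS and DJ value below would change places. In whole liver RNA, fewer cells of a type and less RNA per cell cannot be told apart.

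The windows just upstream of the start of Cd36, Mogat1 and Cidec, the genes with the widest gaps between DJ526 and other groups after Cidea, were read from RefSeq (build GRCm38.p6), 5′ to 3′ on the strand of the gene, 250 bases each. Capitals mark AGGTCA or its reverse complement, the 6-base core that nuclear receptors such as PPAR-gamma bind.

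Cd36, chr5:17835897-17836146, minus strand: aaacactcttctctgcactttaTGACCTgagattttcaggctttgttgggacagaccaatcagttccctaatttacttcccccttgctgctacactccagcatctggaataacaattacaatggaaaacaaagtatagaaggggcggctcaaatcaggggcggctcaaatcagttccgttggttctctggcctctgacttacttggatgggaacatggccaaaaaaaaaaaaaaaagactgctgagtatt

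Mogat1, chr1:78510810-78511059, plus strand: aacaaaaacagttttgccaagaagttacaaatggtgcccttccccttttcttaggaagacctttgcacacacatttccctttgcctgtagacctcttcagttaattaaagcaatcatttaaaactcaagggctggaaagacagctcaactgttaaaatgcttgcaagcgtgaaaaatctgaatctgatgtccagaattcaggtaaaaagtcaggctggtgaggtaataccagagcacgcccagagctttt

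Cidec, chr6:113434765-113435014, minus strand: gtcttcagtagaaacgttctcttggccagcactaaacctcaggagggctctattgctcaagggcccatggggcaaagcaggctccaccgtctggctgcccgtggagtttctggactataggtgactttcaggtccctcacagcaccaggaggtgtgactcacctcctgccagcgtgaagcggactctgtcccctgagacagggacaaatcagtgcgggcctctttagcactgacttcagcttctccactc

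Cidec, chr6:113435761-113436010, minus strand: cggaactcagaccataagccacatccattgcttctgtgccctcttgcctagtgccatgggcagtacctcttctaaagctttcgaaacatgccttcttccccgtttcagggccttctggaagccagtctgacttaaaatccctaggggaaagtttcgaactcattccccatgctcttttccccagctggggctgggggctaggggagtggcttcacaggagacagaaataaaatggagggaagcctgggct

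The Cd36 window held 1 such core, which begins 228 bases before the start. The Mogat1 window and both Cidec windows held none. In all, 7 of the 10 genes had windows, 11 in number, and 5 of the 11 windows held AGGTCA on either strand (1 each of Cd36, Plin2 and Plin5, and 2 of Pparg), where 14.0% of 32851 windows of this length did. A direct repeat of AGGTCA with 1 base between the copies, the DR1 element of PPAR receptors, was in 0 of the 11 and in 0.0335% of all windows. These are matches of letters and no record of binding.

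Pparg had the narrowest range over the 12 mice. Its levels were 1.54, 0.83 and 1.07 in Ctrl, 1.36, 0.75 and 0.96 in RS, 1.02, 0.93 and 1.01 in DJ, and 0.97, 1.04 and 0.69 in DJ526. All 4 groups overlapped, and the highest mouse had 1.80 times the lowest. The group means ran from 1.14 ± 0.36 in Ctrl through 1.03 ± 0.31 in RS and 0.99 ± 0.05 in DJ to 0.90 ± 0.18 in DJ526 (SD, n = 3), and neighbours in this order differed by less than the larger SD of the pair.

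Cidea, a droplet protein of brown fat that appears in fatty liver, spanned a 67.1-fold range. Its levels were −0.53, −2.85 and −5.43 in Ctrl, −5.04, −5.61 and −5.81 in RS, −5.86, −6.44 and −5.17 in DJ, and −5.41, −6.15 and −6.60 in DJ526. Thus 2 Ctrl mice stood above all others, and Ctrl 3 lay among the mice of the other diets. The Ctrl mice alone spanned 29.8-fold, against 1.70-fold in RS, 2.41-fold in DJ and 2.29-fold in DJ526.

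Cidec, which joins droplets and lets large ones grow at the expense of small ones, followed with a 7.11-fold range. It was −0.85, −2.48 and −2.68 in Ctrl, −1.17, −2.14 and −3.17 in RS, −3.68, −2.28 and −1.76 in DJ, and −2.98, −3.11 and −3.62 in DJ526. Ctrl 1 and RS 1 were the highest, the DJ526 mice were all below the 3 Ctrl mice, and DJ 1 was the lowest of all. Its second, dimmer probe did not separate DJ526 from Ctrl, with −3.38, −4.40 and −4.14 in Ctrl and −5.22, −4.21 and −3.94 in DJ526.

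The perilipins spanned at most 2.14-fold over the 12 mice. Plin2, the main droplet coat of hepatocytes, was 5.04 to 5.45 in Ctrl, 4.72 to 5.53 in RS, 4.52 to 5.45 in DJ and 4.98 to 5.32 in DJ526, and the groups overlapped throughout. Plin5, the perilipin of tissues that burn fat and the neighbour of Plin4 on chromosome 17, was 4.33 to 5.20 in Ctrl, 4.25 to 4.74 in RS, 4.59 to 4.81 in DJ and 4.36 to 4.79 in DJ526, again with overlap of all groups. Plin4, a coat protein of adipocytes and muscle, was 1.54, 1.51 and 1.01 in Ctrl, 1.72, 1.59 and 1.22 in RS, 1.76, 1.76 and 2.11 in DJ, and 1.72, 1.60 and 1.29 in DJ526. The 3 DJ mice were the highest 3 of the 12, so that Plin4 did not overlap between DJ and any other group.

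Among the genes of uptake and transport, Cd36, the fatty acid translocase, was 1.58, 0.73 and 0.47 in Ctrl, 2.17, 0.68 and 0.69 in RS, 1.25, 1.89 and 1.93 in DJ, and 0.66, 0.95 and −0.02 in DJ526. RS 1 was the highest mouse and DJ526 3 the lowest, and every DJ mouse was above every DJ526 mouse. The means were 1.69 ± 0.38 in DJ, 1.18 ± 0.86 in RS, 0.93 ± 0.58 in Ctrl and 0.53 ± 0.50 in DJ526 (SD, n = 3), and neighbours in this order differed by less than the larger SD of the pair.

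Fabp4, the fatty acid carrier of adipocytes and macrophages, was 1.80, 1.07 and 1.47 in Ctrl, 1.28, 0.69 and 0.52 in RS, 0.75, 1.07 and 1.15 in DJ, and 0.87, 0.76 and 0.58 in DJ526. All DJ526 mice were below all Ctrl mice. Lpl, which splits the triglyceride of lipoproteins and is low in adult hepatocytes, was 0.54, −0.31 and 0.34 in Ctrl, 0.52, −0.73 and −0.73 in RS, −0.11, −0.09 and 0.42 in DJ, and −0.36, −0.55 and −0.42 in DJ526. The DJ526 mice lay within 1.14-fold of each other and below all Ctrl and all DJ mice, while 2 RS mice were lower still. The second, dimmer Lpl probe was −2.02, −2.71 and −2.04 in Ctrl, −2.47, −2.49 and −1.68 in DJ, and −2.59, −2.91 and −2.72 in DJ526, so that on it DJ526 lay below all DJ mice but overlapped with Ctrl.

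Mogat1, which makes diacylglycerol from monoacylglycerol, was −2.64, −3.18 and −3.88 in Ctrl, −1.93, −4.19 and −3.52 in RS, −3.50, −2.64 and −1.74 in DJ, and −3.89, −3.62 and −4.15 in DJ526. DJ 3 and RS 1 were the highest, RS 2 was the lowest, and the DJ526 mice lay below all DJ mice but among the Ctrl and RS mice. The range over the 12 mice was 5.46-fold.

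**Figure D1:**
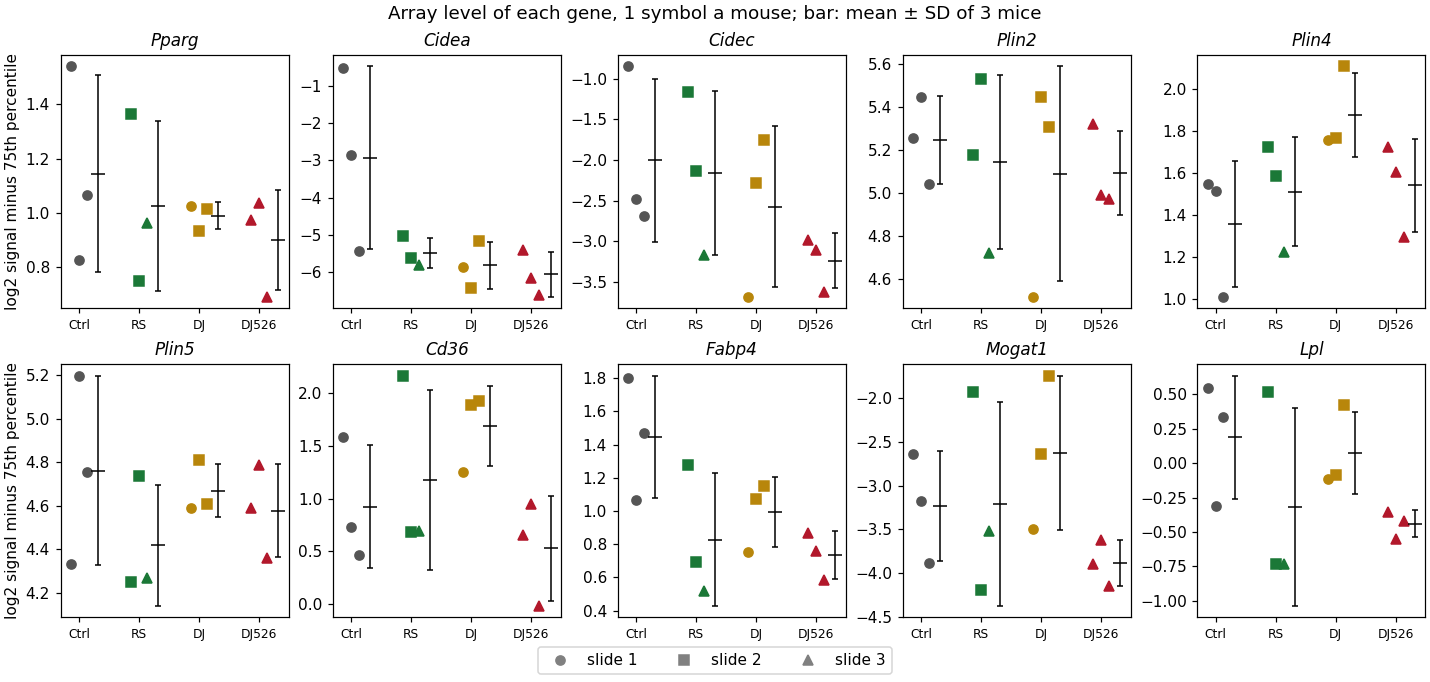
Level of each of the 10 genes in every mouse (log2 scale, 0 at the 75th percentile of that array, a separate axis for each gene), by diet group on the horizontal axis. Colour gives the diet, symbol shape the slide, and the bar the mean ± SD of 3 mice. Cidea spans 67.1-fold and 2 Ctrl mice stand above the rest, whereas Pparg spans 1.80-fold.

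The spread between mice on 1 diet was wide for most of these genes. The SD within a group, pooled over the 4 groups, was larger than that of 99.7% of the 27283 probes well above background on all arrays for Cidea, 98.6% for Cidec, 98.1% for Mogat1 and 95.7% for Cd36. It was larger than that of 90.5% for Lpl, 82.2% for Plin2 and 75.3% for Fabp4. Plin5 (72.9%), Pparg (67.3%) and Plin4 (65.4%) were the steadiest, and all 10 were above the median probe, whose SD was 0.19 log2 units.

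**Figure D2:**
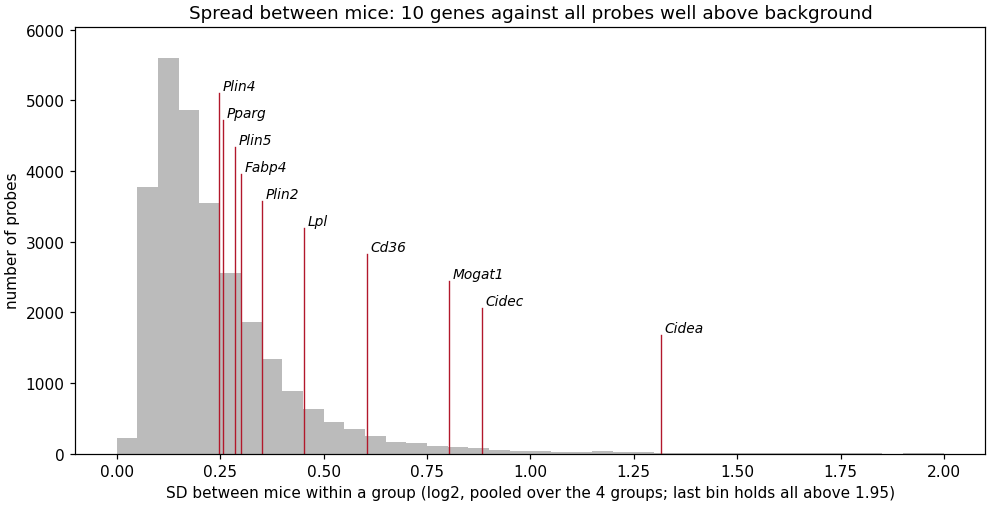
Grey bars count probes by their SD between mice within a group (log2, pooled over 4 groups), for the 27283 probes well above background on all arrays. Red lines mark the 10 genes at their SD, with heights set only to separate the names. Cidea, Cidec, Mogat1 and Cd36 lie in the thin upper end.

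The mice differed in how many of the 10 genes stood above their own mean over the 12 mice. The count was 8, 6 and 4 in Ctrl, 9, 4 and 0 in RS, 4, 8 and 8 in DJ, and 2, 3 and 0 in DJ526. RS 1 and RS 3, on the same diet, were thus the mouse with the most genes up and 1 of the 2 with none. Read by slide, 22 of 40 values were above the mean of their gene on slide 1, 29 of 40 on slide 2 and 5 of 40 on slide 3. Slide 3 holds all DJ526 mice and RS 3. The 40 values of a slide are 10 genes in only 4 mice, and are not 40 independent values.

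Each diet was then compared with the others by limma, with Benjamini-Hochberg adjustment over all probes at 0.05. None of the 10 genes passed in any of the 9 comparisons. Of all probes, 0% passed for RS and for DJ against Ctrl, 0.00507% for DJ526 against Ctrl, 0.0101% for DJ526 against DJ and 0.00761% for DJ526 against RS. For DJ against RS, rice against starch and sucrose, resveratrol against none, and the effect of resveratrol on rice set against its effect on starch and sucrose, 0% passed. The methods' t-test on the same values also passed none of the 10 after adjustment. Without adjustment, limma had 2 of the 10 at p under 0.05 in each of RS, DJ and DJ526 against Ctrl, where 6%, 5.22% and 10.8% of all probes were, and 2 of 10 in DJ526 against DJ, where 9.81% were. It had 0 of 10 in DJ526 against RS (5.5%) and in DJ against RS (3.52%), 1 for rice (4.57%), 2 for resveratrol (10.1%) and 1 for the difference between its effects (6.09%). The methods' t-test, also without adjustment, had 1 for DJ526 against Ctrl (12.8% of all probes), 2 for DJ526 against DJ (10.8%) and 1 for resveratrol (9.77%). It had 0 for RS against Ctrl (5.01%), DJ against Ctrl (4.62%), DJ526 against RS (6.13%), DJ against RS (2.78%), rice (4.94%) and the difference between the effects (6.2%). The methods' Z ratio criterion, which adjusts no p, was met by 1 gene in DJ526 against Ctrl (3.87% of all probes), 1 in DJ526 against DJ (3.79%) and 1 for resveratrol (3.83%). It was met by 0 of the 10 for RS against Ctrl (1.69%), DJ against Ctrl (1.37%), DJ526 against RS (2.04%), DJ against RS (1.07%), rice (2.15%) and the difference between the effects (2.58%). The comparisons against Ctrl share the Ctrl mice, and those that hold DJ526 share its mice.

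DJ526 against Ctrl asked what the resveratrol-enriched rice diet as a whole changed. In this comparison 9 of the 10 genes were lower and Plin4 was higher, none past the threshold, and the median log2 fold change was −0.51 beside 0.02 over all probes, or −0.33 without DJ526 3. The groups did not overlap for 3 genes, Cidec, Fabp4 and Lpl, where 20.6% of all probes did not. Cidea had the largest difference, −3.11 ± 0.93 (SE, limma adjusted p = 0.274), and was −1.91 without Ctrl 1 and −4.36 without Ctrl 3. Cidec was −1.23 ± 0.62 (adjusted p = 0.504), and −0.66 without Ctrl 1. Fabp4 was −0.71 ± 0.22 (adjusted p = 0.279) and Lpl −0.63 ± 0.32 (adjusted p = 0.511). The second probes of Cidec and Lpl, at −0.49 and −0.48, both overlapped.

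DJ526 against DJ set 2 rice diets side by side. Here too 9 of 10 were lower, none past the threshold, and Plin2 was at 0.01, with a median of −0.30 beside 0.04 over all probes. Without DJ526 3 the median was −0.20, without DJ 3 also −0.20, without DJ526 1 −0.49 and without DJ 2 −0.45. The groups did not overlap for 4 genes, Cd36, Mogat1, Lpl and Plin4, all lower in DJ526, where 18.4% of all probes did not overlap. Mogat1 had the largest difference, −1.26 ± 0.57 (SE, limma adjusted p = 0.507), and was −0.82 without DJ 3. Cd36 was −1.16 ± 0.43 (adjusted p = 0.446), Lpl −0.52 ± 0.32 (adjusted p = 0.615) and Plin4 −0.34 ± 0.18 (adjusted p = 0.567). Lpl was −0.34 without DJ 3, and Plin4 −0.21 without DJ526 3. Without DJ526 3, 6 of the 10 genes were lower.

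With the slide as a block, some of these directions changed, and 8 of the 10 genes were higher in DJ526 than in DJ. Only Cd36 (−0.64 ± 0.78, SE) and Mogat1 (−1.24 ± 1.02) were lower, while Lpl became 0.02 ± 0.60 and Plin4 0.04 ± 0.32. DJ and DJ526 mice share no slide, so that the blocked difference is reached only through RS 3. A slide difference and the values of RS 3 itself cannot be told apart here. Against Ctrl, with which DJ526 shares no slide either, 9 of 10 stayed lower with the block. The median was then −0.35 beside −0.12 over all probes, with Cidea at −2.69, Cidec at −1.37, Fabp4 at −0.60 and Lpl at −0.29. On slide 3 itself the mean of the 3 DJ526 mice was above RS 3 in 5 genes and below it in 5. These differences ran from −0.37 to 0.37. In the 5 higher genes all 3 mice lay above RS 3, while among the lower ones only Mogat1 had all 3 below it. RS 3 is the only mouse of another diet that shares a slide with DJ526.

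**Figure D3:**
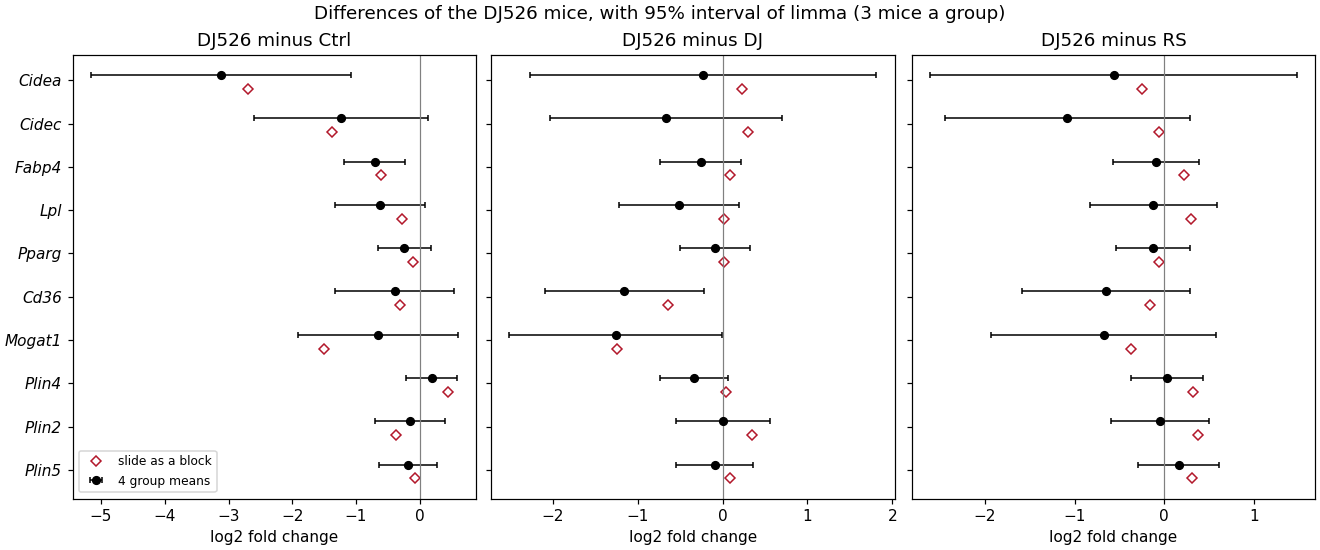
Log2 fold change of each gene in DJ526 minus Ctrl, DJ or RS. Black points are differences of group means with the 95% interval of limma (3 mice a group). Open red diamonds are the differences with the slide as a block, drawn without an interval. In DJ526 minus DJ, 9 of 10 black points but 2 of 10 diamonds lie below 0.

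DJ526 against RS, the 2 diets with resveratrol, gave 8 genes lower and 2 higher, and 5 and 5 with the slide as a block or without RS 1 (which also holds without the 3 mice high in adipocyte genes). No gene was free of overlap, where 11.1% of all probes were. The largest difference was Cidec at −1.08 ± 0.62 (SE, limma adjusted p = 0.979), which was −0.58 without RS 1 and −0.06 with the slide as a block.

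RS against Ctrl gave 7 genes lower and 3 higher, and none without overlap (10.2% of all probes). The split became 5 and 5 without Ctrl 1 or RS 3, 9 and 1 without Ctrl 3, without RS 1 or with the slide as a block, and 8 and 2 without Ctrl 1, RS 1 and DJ 2. Cidea was −2.55 ± 0.93 (SE, limma adjusted p = 0.724), or −1.35 without Ctrl 1 and −1.57 without the 3 mice. DJ against Ctrl also gave 7 lower and 3 higher (4 and 6 without Ctrl 1, 5 and 5 without the 3 mice, and 8 and 2 with the slide as a block), with Plin4 alone free of overlap (9.34% of all probes) at 0.52 ± 0.18 (limma adjusted p = 0.857), and 0.35 without Ctrl 3. Cidea was the largest there, at −2.88 ± 0.93 (adjusted p = 0.819), or −1.68 without Ctrl 1 and −1.37 without the 3 mice. Between DJ and RS, 6 genes were higher in DJ and 4 lower, or 8 and 2 without RS 1, without DJ 1 or without the 3 mice. Plin4 was higher at 0.37 ± 0.18 without overlap (6.34% of all probes; limma adjusted p = 1.00, 0.22 without RS 3 and 0.53 without the 3 mice). Mogat1, the largest at 0.58 ± 0.57 (adjusted p = 1.00), ranged from 0.09 without RS 2 to 1.23 without RS 1, and was also 1.23 without the 3 mice. On slide 2, which holds 2 mice of each, the DJ mean was above the RS mean in 7 of the 10 genes.

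Pooled over both carbohydrates, all 10 genes were lower with resveratrol, with a median of −0.42 beside 0.03 over all probes, and 9 of 10 with the slide as a block or without the 3 mice. Without RS 3, 9 of 10 were lower and the median was −0.26. Every gene overlapped (0.554% of all probes did not). Cidea was −1.39 ± 0.66 (SE, limma adjusted p = 0.515), and −0.79 without Ctrl 1 or −2.01 without Ctrl 3. Rice against starch and sucrose gave 7 lower and 3 higher and no gene without overlap (0.119% of all probes), with Cidea at −1.72 ± 0.66 (adjusted p = 0.975), or −1.12 without Ctrl 1 and −0.86 without the 3 mice. The split became 5 and 5 without the 3 mice or without DJ 1, and 9 and 1 without RS 3. The effect of resveratrol on rice minus that on starch and sucrose was positive in 5 genes and negative in 5, or 7 and 3 with the slide as a block, and 5 and 5 without the 3 mice. Cidea was the largest at 2.32 ± 1.31 (adjusted p = 0.876), or 1.12 without Ctrl 1, 3.56 without Ctrl 3 and 1.03 without the 3 mice.

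Adipocyte genes moved with part of these values. Of 7 adipocyte markers, Adipoq was −2.88, −3.03 and −3.49 in Ctrl 1, RS 1 and DJ 2 against −6.90 to −5.64 in the other 9 mice. Cfd was −0.16, −1.22 and −1.11 in the same 3 mice against −8.57 to −4.18, and Plin1 and Retn were also highest in them. Lep, Adrb3 and Lipe were not, and the summed signal of the 7 was 1.13 to 2.59 in Ctrl, 1.19 to 1.90 in RS, 0.919 to 2.03 in DJ and 1.04 to 1.28 in DJ526, as multiples of the 75th percentile. Adrb3 was the largest part of this sum in every mouse. The highest RS sum was that of RS 3, with RS 1 at 1.72. Ucp1, the uncoupling protein of brown fat, was −0.82 in Ctrl 1 and not well above background in the other 11 mice, where it read −9.47 to −8.26. Cox8b, another gene of brown fat, was −1.44 in Ctrl 1 and −4.99 to −3.60 elsewhere. The other brown adipocyte markers, Elovl3 (−3.21), Cox7a1 (1.54) and Dio2 (−6.28), were not highest in Ctrl 1. Elovl3 was −2.26 and −2.98 in Ctrl 2 and Ctrl 3, and Cox7a1 was 2.18 and 2.28. Ctrl 1 also had the lowest Ctrl sum of these markers. The summed signal of the 5 brown adipocyte markers, of which Cox7a1 makes up the most, was 3.97 to 5.03 in Ctrl, 2.82 to 4.96 in RS, 3.10 to 4.37 in DJ and 3.64 to 4.72 in DJ526.

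Ctrl 1, the highest mouse for Pparg, Cidea, Cidec, Fabp4 and Lpl, was thus also the only one with Ucp1 well above background, and RS 1, the highest for Cd36, carried Adipoq and Cfd. Ctrl 2 had the second highest Cidea without Ucp1 or raised Adipoq (−6.67), and DJ 2 had raised adipocyte markers and the lowest Cidea of the DJ mice. DJ 3, the highest mouse for Mogat1 and Plin4, had Adipoq at −5.64, higher than the other 8 mice outside those 3. Its Retn (−4.39) was the lowest of the 12, however, and its Plin1 (−6.97) and Cfd (−5.25) lay among those of the other 8. Without Ctrl 1, RS 1 and DJ 2, 9 of 10 genes were still lower in DJ526 than in Ctrl and 9 of 10 lower than in DJ, with Cidea at −1.91 and −0.54, Cd36 at −0.07 and −1.06, and Mogat1 at −0.36 and −1.26. DJ526 against RS then gave 5 lower and 5 higher, and no gene passed in any comparison. The part of fat tissue in the values of these 3 mice was not tested.

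**Figure D4:**
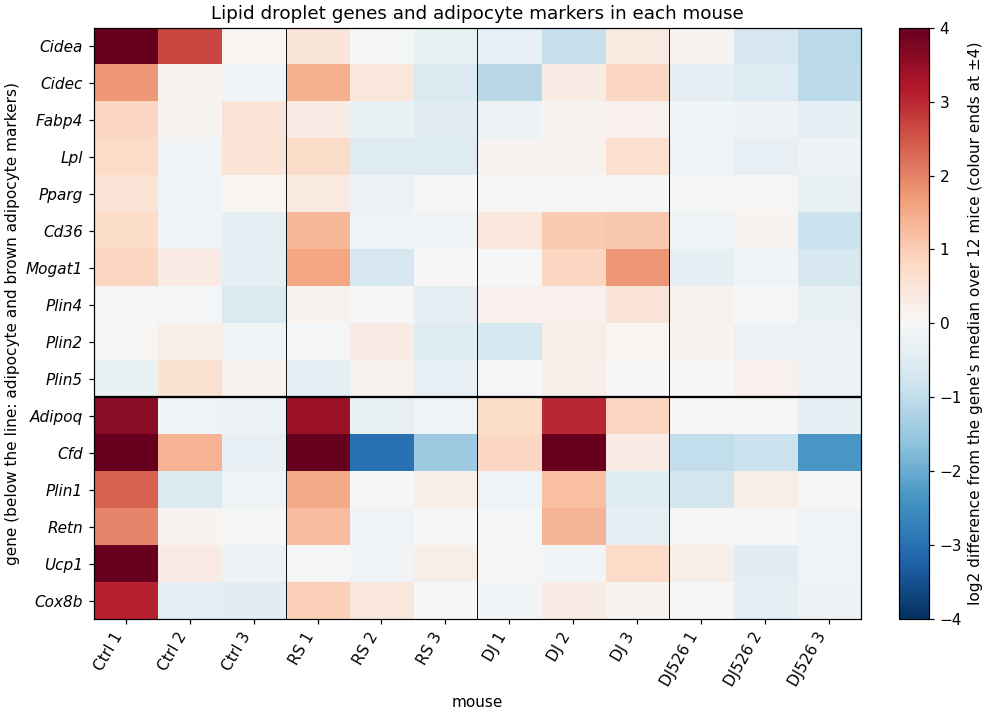
Each cell is the log2 difference of a gene in 1 mouse from the median of that gene over the 12 mice, with red higher and blue lower. The 10 genes are above the line and 6 adipocyte and brown adipocyte markers below it, and vertical lines part the diets. The other markers of these lists, Lep, Adrb3, Lipe, Elovl3, Cox7a1 and Dio2, did not set Ctrl 1, RS 1 and DJ 2 apart and are not drawn. Ctrl 1, RS 1 and DJ 2 are deep red or red in Adipoq, Cfd, Plin1 and Retn, and Ucp1 is deep red in Ctrl 1.

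Macrophages also carry Fabp4, Lpl and Cd36. The summed signal of 7 Kupffer cell and macrophage markers was 91.4 to 162 in Ctrl, 74.5 to 109 in RS, 73.4 to 109 in DJ and 74.2 to 109 in DJ526, as multiples of the 75th percentile. The highest sum was that of Ctrl 3, while Ctrl 1 (105) and Ctrl 2 (91.4) lay within the range of the other diets. By group mean, all 7 markers were lower in RS and in DJ than in Ctrl and 6 of 7 in DJ526, none past the threshold. Their part in the lower Fabp4 and Lpl values was not tested.

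The other genes of the pathway, in 5 lists around the 10, did not pass the test in either direction in any comparison. In DJ526 against Ctrl, 10 of 11 other genes of droplet coat and growth were lower, as were 7 of 10 of triglyceride synthesis, 6 of 11 of triglyceride breakdown and secretion, 6 of 14 PPAR-gamma partners and regulators, and 5 of 16 other targets and uptake genes. Their medians, −0.10, −0.02, −0.06, 0.00 and 0.09, stand beside 0.02 over all probes. Of these 62 genes, 13 did not overlap, beside 20.6% of all probes, and in DJ526 against DJ 8 did not, beside 18.4%. Among the 13, Mogat2, a second monoacylglycerol acyltransferase, was lower without overlap at −0.83 (limma adjusted p = 0.322), Agpat2, which makes phosphatidic acid, at −0.59 (adjusted p = 0.306), Mgll, which splits monoacylglycerol, at −0.59 (adjusted p = 0.266), and Aqp7, a glycerol channel, at −0.73 (adjusted p = 0.283). In DJ526 against DJ, Aqp7 was −0.80 (adjusted p = 0.320) and Fitm1, which helps droplets form, −1.18 (adjusted p = 0.492), both without overlap.

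The pattern over mice was compared between genes as the root mean square difference of levels, each centred on its own mean, over the 12 mice and 15576 genes. For Cidea, the gene of the 10 with the largest SD over the mice, the closest was Cox8b, at 1.15 log2 units, followed by S100b, Pi16, Myh13 and Prss41 at up to 1.25, which are wide distances. The same measure, taken after the values had been seen, put Mmd2 (0.25), Lgals1 and Fitm1 (0.30) closest to Cd36, and Mmd2 (0.31), Wfdc2, Mtnr1a, Slc22a7 and Fitm1 (0.40) closest to Mogat1. Fitm1 was −0.47, −1.27 and −1.70 in Ctrl, −0.08, −1.92 and −1.39 in RS, −0.80, −1.02 and −0.35 in DJ, and −1.57, −1.27 and −2.87 in DJ526. RS 1 and DJ 3 were its highest mice and DJ526 3 its lowest. Fabp4 lay closest to Apobr (0.15), a lipoprotein receptor of macrophages, followed by Ephx1 and Mgll, each at 0.19. Ephx1 was also the gene closest to Lpl (0.19).

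**Figure D5:**
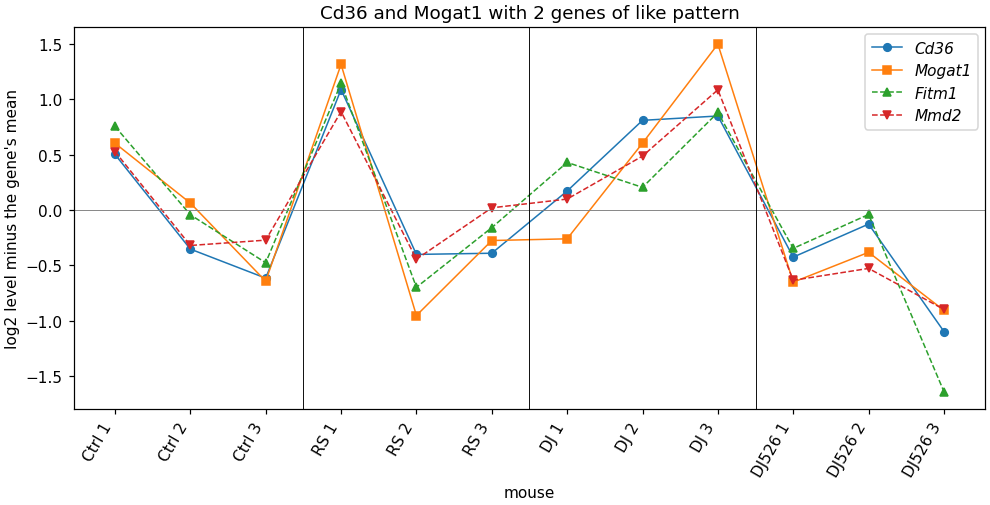
Level of Cd36, Mogat1, Fitm1 and Mmd2 in each mouse, as log2 difference from the mean of the gene over the 12 mice; vertical lines part the diets. All 4 genes are high in RS 1 and DJ 3 and below their mean in the 3 DJ526 mice. Mmd2 and Fitm1 were picked for their likeness to Cd36 and Mogat1 over these same mice, so that their shared pattern follows from the choice.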

How the data were processed

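The authors deposited, for each of 12 one-colour Agilent arrays, the spot intensity from Feature Extraction 11.5.1.1, and a table of globally normalized intensity, on a linear scale. Groups came from the labels, which name Trizol for the RNA where the methods name another kit. Control spots (43020 of 44397 spots are not controls) and 93 to 197 outlier spots an array were left out, spots of a probe were averaged, and log2 of the 75th percentile (952.5 to 1167) was subtracted. The 27502 named probes were matched by accession to RefSeq, and the gene Gyk was found as Gk. No value was available here for Ldaf1 and Cd68.

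limma 3.58.1 (R 4.3.3) was fitted with 4 group means, a trended prior (median prior degrees of freedom 2.98, residual 8) and Benjamini-Hochberg adjustment over all probes at 0.05. Of 39429 probes, 68 lacked a value on some array. On simulated data for DJ526 against Ctrl, 44.5%, 74% and 88% of changes of 1, 2 and 3 log2 units were recovered (39361 probes). The number of arrays limits the precision. Each array is 1 mouse.

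The genes and the 13 other lists (droplet and pathway genes, and markers of hepatocytes, white and brown adipocytes, Kupffer, endothelial and stellate cells, pancreas and muscle) were chosen with earlier results of these data known. Every member is named. Fold changes with SE are printed where groups do not overlap and for the largest difference of a comparison, and other list genes are named where groups do not overlap and the log2 fold change is at least 0.5. Alternatives changed the background correction, scaling, filter, outlier spots, variance trend, groups in the fit, slide, replicate number, test, probe choice and mice. Figures used matplotlib 3.10.9.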

Additional observations from a re-analysis of the deposited data

How the results depend on the processing

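The count of the 10 genes past the threshold stayed at 0 in 240 repeats of the 9 comparisons under other settings, among them those that left out each mouse in turn, where it was 0 to 0. The 3 exceptions were by the methods' Z ratio criterion (beyond 1.5 and unadjusted p under 0.05), which 1 gene met in DJ526 against Ctrl (Fabp4, Z ratio −1.66), 1 in DJ526 against DJ (Cd36, −2.85) and 1 in resveratrol against none (Fabp4, −1.58). Of all probes, 3.87%, 3.79% and 3.83% met it in these comparisons. Some repeats could not move a log2 fold change, such as those without a mouse of a group not compared or without the variance trend. Of the repeats of the log2 fold changes named, with such repeats counted, 423 kept their direction and 2 turned. Both were in DJ526 against DJ with the slide as a block, Plin4 at 0.0353 and Lpl at 0.0154, and DJ and DJ526 share no slide. Replicate numbers did not pair the mice (r over 0.1 in 6 of 18 pairs of the same number, from −0.354 to 0.406), and the fit with the replicate number as a block passed 0 of the 10 genes in every comparison. With the array median in place of the 75th percentile, 10 of 10 genes were lower in DJ526 than in DJ, and 8 of 10 higher in DJ than in RS. Leaving out Ctrl 1, RS 1 and DJ 2 together was added after the data were seen. With 3 mice a group, limma misses many changes of 1 log2 unit, so that a gene that did not pass is not shown to be alike between diets.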

Other observations

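Markers of other cell types that liver pieces can hold were read as well. The summed signal of 8 endothelial markers was 39.8 to 52.3 times the 75th percentile over the 12 mice and that of 7 stellate cell markers 10.6 to 14.2. The endothelial sum did not overlap between RS (46.2 to 47.0) and DJ526 (48.1 to 52.3), and 4 of the 8 genes did not, beside 11.1% of all probes. Of these 4, Cdh5, Clec4g and Oit3 were higher in DJ526 and Pecam1 was lower. None of the 8 passed the threshold. The summed signal of 6 pancreatic acinar markers was 0.527 to 0.814, and that of 4 skeletal muscle markers 0.0352 to 0.0780.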
